A study of Mus musculus with 12 samples.

Results

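The set described here holds 32 genes of glucose use and of the response to low oxygen, out of 55401 genes counted in every library. They were taken by gene symbol from a list chosen with earlier results of these data known. The RNA came from liver T cells of adult C57BL/6 mice that carry CD3 but lack CD4 and CD8, called double negative (DN) T cells. Live cells, which exclude the dye 7-AAD, were sorted as positive for CD45 and CD3 and negative for NK1.1, CD4 and CD8, and then by receptor into TCRγδ and TCRαβ cells. Each population was measured with arachidonic acid (AA), a fatty acid that is the source of prostaglandins and leukotrienes, and without it. The 4 groups of 3 libraries were γδ with AA, αβ with AA, γδ without AA and αβ without AA. AA stimulation lasted 48 h and followed the sort. The labels say neither whether the cells without AA were also cultured, so that AA and culture cannot be told apart, nor whether libraries of a group came from separate animals. The p-values therefore measure the spread between these libraries, which may be technical.

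Glycolysis splits glucose into pyruvate in a chain of enzyme steps and yields ATP without oxygen. Activated T cells raise it strongly, and much of their pyruvate is then turned into lactate by lactate dehydrogenase and exported. The transcription factor HIF-1, whose oxygen-regulated subunit is encoded by Hif1a, drives many of these genes. Prolyl hydroxylases mark that subunit for destruction when oxygen is present. In T cells the factor MYC and the kinase mTOR drive the same genes at normal oxygen.

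Library totals ranged from 6036487 to 30548253 counts, and the smallest total was that of αβ with AA replicate 3, in which the repeat gene Gm10800 stood at 218546 CPM (counts scaled to the same total in every library). Within the αβ group with AA, libraries correlated at 0.738 to 0.842 (Pearson, across genes, log2 CPM), against 0.909 to 0.967 within the other groups. As a check of the sort, Trdc, the constant region of the δ chain, was set against the counts of CD3 chain genes. It went against the label in the libraries labelled γδ without AA replicate 3, with 0.0292 Trdc counts per CD3 count, and αβ without AA replicate 3, with 0.354. The other γδ libraries without AA had 0.361 and 0.427, and the other αβ libraries without AA had 0.0178 and 0.0243. Results are therefore also given without those libraries. With AA the ratio did not part the populations, since it was 0.518, 0.352 and 0.230 in γδ libraries and 0.358, 0.131 and 0.227 in αβ libraries. RNA of the αβ receptor (Trac, Trbc1 and Trbc2) was scarcest in the group labelled αβ with AA, with 0.0209% to 0.0567% of counts, against 0.137% to 0.154% in αβ cells without AA, and was 0.153% to 0.239% in γδ cells with AA. Its part in the results on that group was not tested. Genes of other cells were present in all groups, since Lyz2, which encodes the lysozyme of macrophages and neutrophils, stood at 1672 to 35049 CPM. In bulk RNA, fewer cells of a type and less RNA per cell cannot be told apart.

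All 32 genes passed the filter on low counts and none was called in any of 6 comparisons by edgeR's quasi-likelihood test at a Benjamini-Hochberg adjusted p under 0.05. In αβ cells 26 of the 32 genes were lower with AA, with a median log2 fold change of -0.60, whereas the median over all 22107 genes tested was 0.12 and 46.7% of those were lower. In γδ cells 15 were lower and 17 higher with AA, with a median of 0.04 against -0.06 over all genes. For 10 of the 32 genes all 3 αβ libraries with AA lay below all 3 without, and for none did they lie above. The share of all genes tested that were lower without overlap in αβ cells was 10.9%, and 8.27% were higher without overlap. In γδ cells 4 genes were higher and 2 lower without overlap, where 4.86% of all genes tested were higher and 7.08% lower. The calls over all genes came to 0.0136% in αβ cells and 0.00905% in γδ cells. Summed over the 32 genes, the share of all counts was 0.483%, 0.441% and 0.432% in replicates 1, 2 and 3 of αβ cells with AA, against 0.721%, 0.587% and 0.793% in αβ cells without AA. The same sum was 0.664%, 0.579% and 0.685% in γδ libraries with AA, against 0.625%, 0.706% and 0.629% in γδ libraries without AA. Of the 12 sums, the 3 lowest belonged to αβ cells with AA. These shares are not corrected for library composition, and Gm10800 alone stood at 218546 CPM in αβ with AA replicate 3, the lowest sum.

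**Figure D1:**
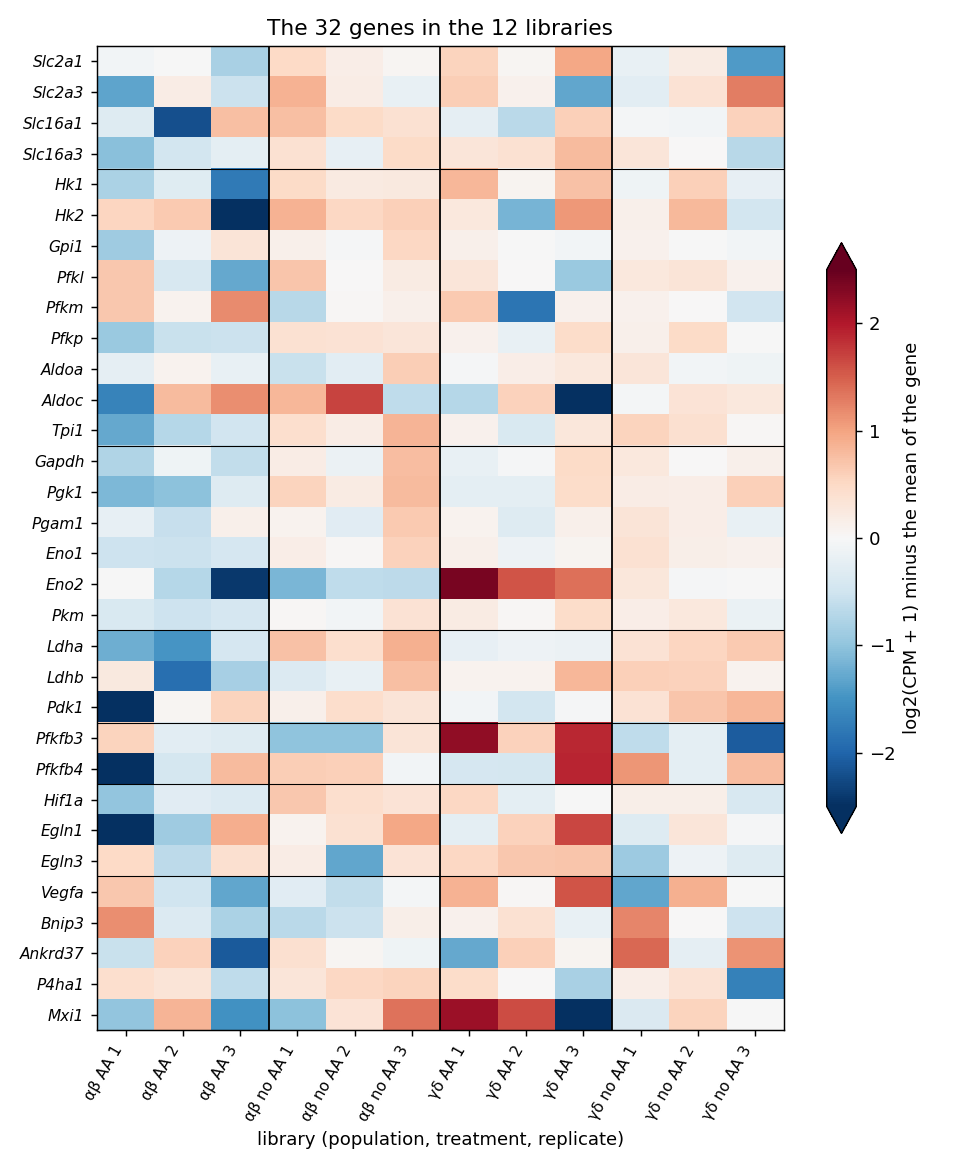
Level of each of the 32 genes in each of the 12 libraries, as log2(CPM + 1) on the TMM scale minus the mean of that gene over all libraries; red is above and blue below that mean, and colours end at 2.5 in either direction. Black lines part the 4 groups and the roles of the genes. The αβ libraries with AA, the 3 columns at the left, are blue for most enzymes between Slc2a1 and Ldha, and Pfkfb3 and Eno2 are reddest in γδ libraries with AA.

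Per base of exon, in the unit TPM, which divides counts by exon length, Ldha, Pkm and Pgk1 were the most abundant of the 32. Ldha had a median of 917 TPM over the 12 libraries (range 327 to 1544), Pkm of 692 (255 to 910.0) and Pgk1 of 582 (222 to 906). These minima were all in αβ with AA replicate 3, the library rich in Gm10800, and TPM does not correct for library composition. Aldoa, Pgam1, Eno1, Gpi1 and Tpi1 followed with medians of 422, 346, 324, 207 and 189 TPM. Hif1a had a median of 97.2 TPM. The hypoxia targets lay far below these, with medians of 24.2 TPM for P4ha1, 22.7 for Bnip3, 10.7 for Ankrd37, 5.11 for Mxi1 and 0.923 for Vegfa. Egln3 had a median of 2.24 TPM. Gapdh, among the most abundant mRNAs of most tissues, had a median of only 43.6 TPM, 14th of the 32. The counts of its annotated copies are given below.

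Upstream of these genes, the hypoxia response element is the DNA site of HIF-1, with the core letters ACGTG or GCGTG, and the E-box CACGTG is the site of MYC and its partners. The 250 bases before each RefSeq start were searched for these letters on both strands, so that every E-box also counts as ACGTG in both directions. RefSeq windows on build GRCm38.p6 were found for 31 of the 32 genes, 47 windows in all, and Slc2a3 was not matched. ACGTG stood in 23 of the 47 windows (48.9%), against 5444 of 32851 windows of all genes (16.6%). GCGTG stood in 24 of 47 (51.1%) against 28.2% of all windows, and CACGTG in 6 of 47 (12.8%) against 6.02%. By gene, ACGTG stood in a window of 19 of the 31 genes, GCGTG of 20 and CACGTG of 6. Some windows of Aldoa, Eno1 and Pfkm overlap, so that a shared site is counted in each. Windows of the 32 genes were also richer in G and C, with a median of 60.4% against 52.4% over all windows, and its part in these shares was not tested. The windows of Ldha, Pgk1 and Pfkfb3 are shown because these genes had the smallest p-values with AA in αβ cells (Ldha and Pgk1) and in γδ cells (Pfkfb3). Capitals mark every match to either core. A match on the other strand reads CACGT for the core ACGTG, and reads CACGC for the core GCGTG. The Ldha windows are chr7:46845554-46845803, with 5 ACGTG matches, 4 of them in 2 E-boxes, and chr7:46846832-46847081, with 1 GCGTG match and neither ACGTG nor an E-box, both on the plus strand. The Pgk1 window is chrX:106186850-106187099 on the plus strand and holds 2 ACGTG matches. The Pfkfb3 windows are chr2:11553930-11554179, with 1 ACGTG match, and chr2:11502091-11502340, with an E-box and a GCGTG match, both on the minus strand. A match describes the letters and is no evidence of binding in these cells.
Ldha, upstream start: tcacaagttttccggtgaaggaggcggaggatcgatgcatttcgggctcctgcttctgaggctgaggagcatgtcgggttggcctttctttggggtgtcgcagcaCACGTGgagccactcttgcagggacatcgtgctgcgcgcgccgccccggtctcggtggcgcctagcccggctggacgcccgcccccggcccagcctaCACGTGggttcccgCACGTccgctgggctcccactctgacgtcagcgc
Ldha, downstream start: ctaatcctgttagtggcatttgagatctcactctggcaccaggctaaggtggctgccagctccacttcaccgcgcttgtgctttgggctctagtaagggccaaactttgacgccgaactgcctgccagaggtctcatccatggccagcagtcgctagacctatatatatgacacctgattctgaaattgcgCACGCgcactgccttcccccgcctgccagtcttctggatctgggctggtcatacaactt
Pgk1: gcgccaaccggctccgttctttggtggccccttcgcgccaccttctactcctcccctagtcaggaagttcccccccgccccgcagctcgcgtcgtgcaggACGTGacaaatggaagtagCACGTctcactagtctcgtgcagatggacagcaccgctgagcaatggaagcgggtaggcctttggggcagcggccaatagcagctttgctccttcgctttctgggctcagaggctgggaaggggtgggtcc
Pfkfb3, upstream start: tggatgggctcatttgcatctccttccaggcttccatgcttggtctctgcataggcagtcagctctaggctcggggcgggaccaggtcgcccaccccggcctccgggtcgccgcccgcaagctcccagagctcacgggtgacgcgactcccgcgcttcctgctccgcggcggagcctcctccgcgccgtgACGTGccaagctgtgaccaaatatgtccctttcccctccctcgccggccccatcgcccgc
Pfkfb3, downstream start: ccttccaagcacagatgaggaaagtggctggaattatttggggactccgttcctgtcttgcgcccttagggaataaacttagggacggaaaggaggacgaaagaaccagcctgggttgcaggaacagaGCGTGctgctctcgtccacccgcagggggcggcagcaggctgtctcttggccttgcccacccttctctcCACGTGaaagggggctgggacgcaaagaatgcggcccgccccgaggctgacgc

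Values below are CPM after TMM scaling, which corrects for differences in library composition, in the order of replicates 1, 2 and 3. Glucose enters through the transporters encoded by Slc2a1 (GLUT1) and Slc2a3 (GLUT3), and lactate leaves through those of Slc16a1 (MCT1) and Slc16a3 (MCT4). Slc16a3 (ENSMUSG00000025161.16) had 30.3, 45.9 and 53.8 CPM in αβ cells with AA, against 84.0, 55.1 and 89.7 CPM in αβ cells without. In γδ cells it had 79.4, 83.8 and 111 CPM with AA, against 79.3, 64.5 and 38.9 CPM without. Its libraries with AA were thus all lower than those without in αβ cells and all higher in γδ cells, although the γδ replicates 1 with and without AA were nearly equal. The log2 fold change with AA was -0.82 ± 0.38 (SE) in αβ cells and 0.59 ± 0.38 in γδ cells, and the difference between populations was 1.40 ± 0.54 (edgeR adjusted p = 0.468).

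Slc2a1 had 96.4, 99.9 and 56.7 CPM in αβ cells with AA, against 143, 114 and 104 CPM without, with no overlap. In γδ cells it had 148, 104 and 199 CPM with AA, against 88.8, 117 and 37.0 CPM without, where the library labelled γδ without AA replicate 3 was the lowest of all 12. The γδ fold change of 0.90 ± 0.41 (edgeR adjusted p = 0.635) was 0.51 ± 0.43 without both libraries whose Trdc went against the label. Slc2a3 and Slc16a1 overlapped between AA and no AA in both populations. Slc16a1 averaged 70.5 ± 58.5 CPM in αβ cells with AA and 116 ± 15.8 CPM without (SD, n = 3 each).

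The first stage of glycolysis traps and splits glucose. Hexokinase, encoded by Hk1 (ENSMUSG00000037012.18) and Hk2, adds the first phosphate. Hk1 had 58.8, 82.9 and 29.6 CPM in αβ cells with AA, against 143, 121 and 122 CPM without, and 183, 108 and 171 CPM in γδ cells with AA, against 95.9, 155 and 89.2 CPM without. The αβ groups did not overlap and the γδ groups did. Its log2 fold change with AA was -1.17 ± 0.39 in αβ cells (edgeR adjusted p = 0.409) and 0.44 ± 0.38 in γδ cells, and Hk1 had the smallest p of the 32 genes for the difference, 1.61 ± 0.54 (edgeR adjusted p = 0.442). Hk2 was uneven in αβ cells with AA, at 23.3, 25.4 and 0.182 CPM, against 29.8, 23.0 and 24.4 CPM without.

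Phosphofructokinase commits the sugar to glycolysis and has a platelet type (Pfkp), a liver type (Pfkl) and a muscle type (Pfkm). Pfkp (ENSMUSG00000021196.14) had 120.4, 155 and 157 CPM in αβ cells with AA, against 298, 295 and 283 CPM without. In γδ cells it had 247, 200.2 and 317 CPM with AA, against 250.03, 319.8 and 227 CPM without. The αβ groups were well apart, with at most 157 CPM in libraries with AA and at least 283 CPM in those without, while the γδ groups overlapped. The log2 fold change was -1.02 ± 0.26 in αβ cells (edgeR adjusted p = 0.272) and -0.06 ± 0.26 in γδ cells. Pfkl averaged 172 ± 115 CPM in αβ cells with AA and 236 ± 60.6 CPM without (SD, n = 3 each), overlapping, and Pfkm reached at most 12.7 CPM.

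Tpi1 (ENSMUSG00000023456.16), the triose phosphate isomerase that interconverts both products of the split, had 65.0, 96.0 and 114 CPM in αβ cells with AA, against 212, 180.3 and 287 CPM without. Its γδ values were 171, 122 and 192 CPM with AA, against 233, 209 and 162 CPM without, and these overlapped. With AA its log2 fold change was -1.31 ± 0.31 in αβ cells (edgeR adjusted p = 0.265) and -0.32 ± 0.31 in γδ cells. Gpi1, the isomerase after hexokinase, and Aldoa, the main aldolase of blood cells, differed less. Gpi1 averaged 418 ± 164 CPM in αβ cells with AA and 542 ± 109 CPM without (SD, n = 3 each), and Aldoa 376 ± 44.1 CPM with AA and 409 ± 182 CPM without, both overlapping. Aldoc, the brain type aldolase, reached at most 17.7 CPM. Of the 9 first-stage genes 8 were lower with AA in αβ cells, and 4 of 9 in γδ cells.

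**Figure D2:**
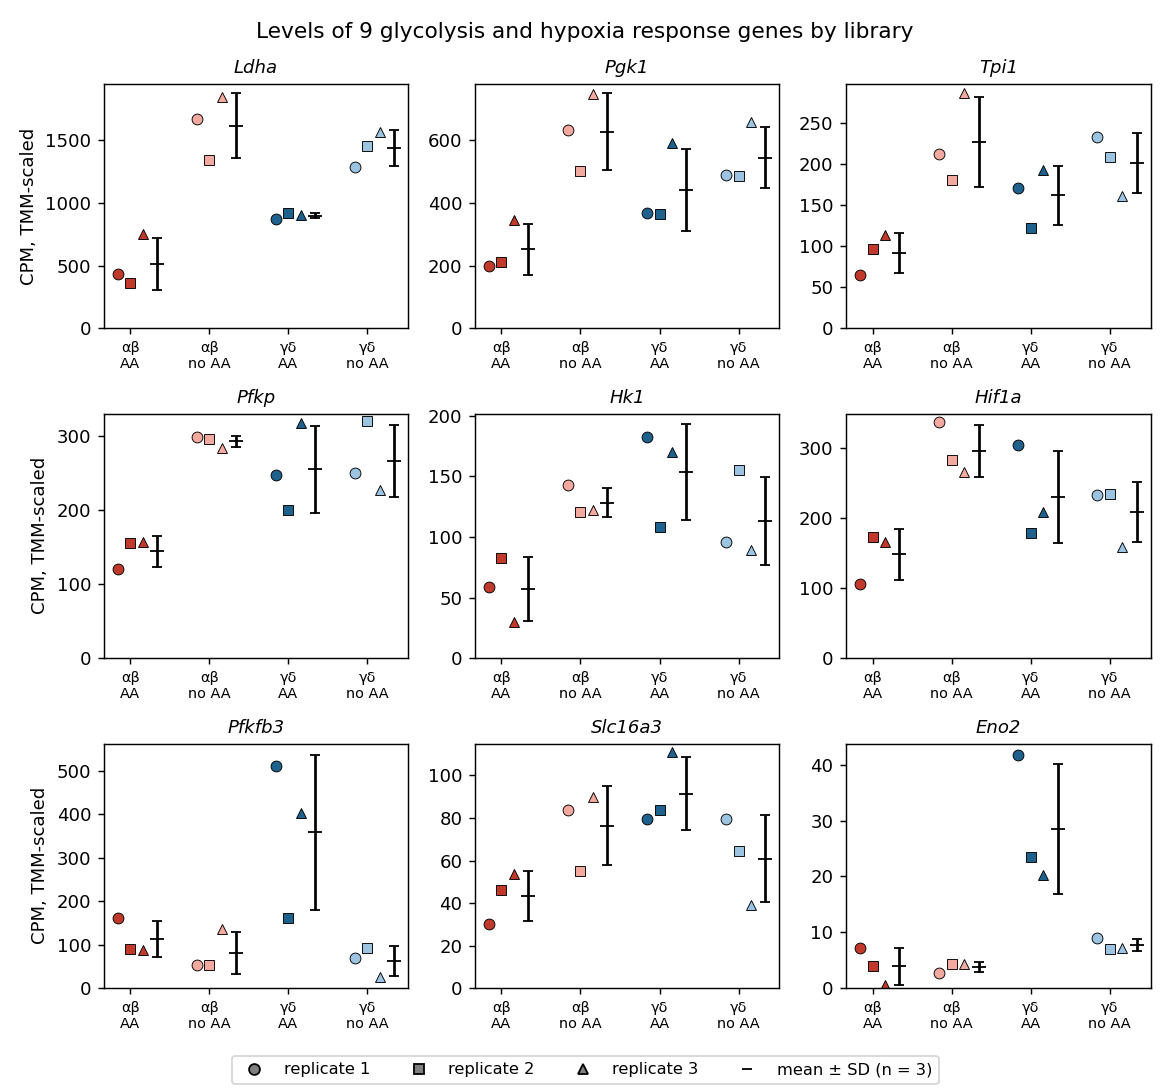
CPM after TMM scaling of 9 of the genes in the αβ libraries with and without AA and the γδ libraries with and without AA; each symbol is a library, its shape gives the replicate number, and the bars are mean ± SD of 3 libraries. The αβ libraries with AA lie below those without AA for Ldha, Pgk1, Tpi1, Pfkp, Hk1, Hif1a and Slc16a3, and the γδ libraries with AA lie above those without AA for Pfkfb3, Slc16a3 and Eno2.

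The second stage recovers ATP and ends in pyruvate. Pgk1 (ENSMUSG00000062070.12), phosphoglycerate kinase, the first step that yields ATP, had 198, 211 and 346 CPM in αβ cells with AA, against 634, 501 and 749 CPM without. The γδ cells had 367, 366 and 591 CPM with AA, against 489.9, 487 and 658 CPM without. Each αβ library with AA was lower than each without, and in γδ cells replicate 3 with AA was above replicates 1 and 2 without. Its log2 fold change was -1.32 ± 0.30 in αβ cells (edgeR adjusted p = 0.239) and -0.31 ± 0.30 in γδ cells, and their difference was 1.02 ± 0.42 (edgeR adjusted p = 0.488).

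Eno1, the main enolase of white blood cells, had 406, 398 and 434 CPM in αβ cells with AA, against 646, 589 and 859.9 CPM without. Pkm, pyruvate kinase, had 909.9, 827 and 885 CPM with AA, against 1197, 1123 and 1526 CPM without. Neither gene's groups overlapped, and the log2 fold changes were -0.76 ± 0.22 for Eno1 and -0.55 ± 0.22 for Pkm (edgeR adjusted p = 0.381 and 0.438). In γδ cells Eno1 averaged 588 ± 52.6 CPM with AA and 674 ± 71.1 CPM without, and Pkm 1398 ± 218 CPM with AA and 1269.99 ± 188 CPM without (SD, n = 3 each), both overlapping. Pgam1, the mutase before enolase, overlapped in both populations.

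Eno2, the enolase best known from neurons, was scarce in αβ cells and had its highest values in γδ cells with AA. It had 41.7, 23.4 and 20.2 CPM in γδ cells with AA, against 9.06, 7.03 and 7.13 CPM in γδ cells without. In αβ cells it had 7.10, 3.98 and 0.545 CPM with AA, against 2.74, 4.29 and 4.24 CPM without. The γδ libraries were above the αβ libraries both with AA and without, and the γδ groups did not overlap each other. The log2 fold change with AA was 1.88 ± 0.90 in γδ cells (edgeR adjusted p = 0.635), and between populations with AA it was 2.86 ± 0.93 (edgeR adjusted p = 0.221).

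Gapdh, glyceraldehyde phosphate dehydrogenase, shared its sequence with 76 annotated copies, 73 of them pseudogenes, at 95% identity or more over at least 300 bases. These copies took 86.9% to 94.9% of the summed counts of Gapdh and its copies, and Gapdh itself stood at 34.2 to 99.9 CPM. Whether reads of Gapdh were counted to its copies was not tested. Gapdh with its copies had 669, 472 and 534 CPM in αβ cells with AA, against 881, 604 and 998 CPM without. In γδ cells the sum was 624, 596 and 731 CPM with AA, against 530.4, 609 and 650.4 CPM without. Both populations overlapped, and a level of Gapdh alone cannot be read from these counts. Copies held at most 5.05% of the counts of Tpi1, 3.48% of Eno1, 1.86% of Pgam1 and 1.36% of Pgk1. The copy of Ldhb, a pseudogene, held up to 53.1% of the summed counts of Ldhb and that copy, in αβ with AA replicate 2, where Ldhb stood at 3.66 CPM alone and at 7.80 CPM with the copy. Exons of Pfkp, Tpi1, Hk1, Slc2a1, Hif1a, Gpi1, Pfkm, Aldoa, Gapdh, Bnip3, Ankrd37 and Mxi1 overlap genes on the opposite strand. Their counts may mix where strand was not used. Exons of Pkm, Pfkm and Hif1a overlap genes on the same strand, whose counts may mix in either case.

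Lactate dehydrogenase A, encoded by Ldha (ENSMUSG00000063229.15), turns pyruvate into lactate. It had 431, 358 and 751 CPM in αβ cells with AA, against 1669.7, 1340.5 and 1845 CPM without. The γδ libraries had 874, 917 and 902 CPM with AA, against 1283, 1458 and 1568 CPM without. Ldha and no other of the 32 genes was lower without overlap in both populations. The log2 fold change was -1.66 ± 0.27 in αβ cells, or 3.15-fold lower, and -0.68 ± 0.27 in γδ cells, or 1.60-fold lower (edgeR adjusted p = 0.146 and 0.635). Averaged over both populations it was -1.17 ± 0.19 (edgeR adjusted p = 0.113), again the smallest p of the 32 genes, where 0% of all genes were called. For that average 5 of the 32 genes were lower (Ldha, Pgk1, Tpi1, Eno1 and Pfkp) and Pfkfb3 was higher at an unadjusted p under 0.05, against 5.23% lower and 5.47% higher of all genes tested. The difference between populations was 0.98 ± 0.38 (edgeR adjusted p = 0.468). DESeq2 and voom called Ldha in αβ cells, with adjusted p of 0.00632 and 0.0367, where they called 1.95% and 0.276% of all genes with an adjusted p.

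Ldhb, the dehydrogenase subunit that favours the reverse step, stood at 3.66 to 29.8 CPM and overlapped in both populations. Pdk1, a mitochondrial kinase that inhibits pyruvate dehydrogenase and so the making of acetyl-CoA, had 46.2, 34.9 and 47.3 CPM in γδ cells with AA, against 62.7, 79.3 and 87.5 CPM without, with no overlap. In αβ cells it overlapped, with replicate 1 with AA at 6.10 CPM. The ratio of Ldha to Ldhb counts, like 7 other ratios of paired enzymes or transporters (Hk2 to Hk1, Slc2a1 to Slc2a3, Slc16a3 to Slc16a1, Pfkp to Pfkl, Pfkfb4 to Pfkfb3, Egln3 to Egln1 and Aldoc to Aldoa), overlapped between AA and no AA in both populations. The smallest p of these 16 exact two-sided permutation tests was 0.2, where the design allows 0.1 at the least, and the smallest Benjamini-Hochberg adjusted value was 0.711. The log2 ratio of Ldha to Ldhb in αβ cells differed by -0.72 between AA and no AA, and by -1.07 where Ldhb was summed with its copy, and the groups overlapped in either case.

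The enzymes encoded by Pfkfb3 and Pfkfb4 make and remove the sugar bisphosphate that most strongly activates phosphofructokinase, and Pfkfb3 (ENSMUSG00000026773.19) favours its making. Pfkfb3 had 511, 162 and 402 CPM in γδ cells with AA, against 69.8, 92.1 and 24.9 CPM without. In αβ cells it had 161, 90.4 and 87.2 CPM with AA, against 53.5, 53.5 and 135 CPM without. Each γδ library with AA exceeded each of the other 9 libraries, and replicate 2 did so by the least. The log2 fold change in γδ cells was 2.52 ± 0.56, or 5.76-fold higher with AA (edgeR adjusted p = 0.300), and 0.48 ± 0.53 in αβ cells. The difference was 2.04 ± 0.76 (edgeR adjusted p = 0.452), and without both libraries whose Trdc went against the label it was 1.12 ± 0.63 (edgeR adjusted p = 0.900) and the γδ fold change 2.10 ± 0.48 (edgeR adjusted p = 0.611). DESeq2 called Pfkfb3 in γδ cells with an adjusted p of 0.00112, where it called 1.37% of all genes with an adjusted p. Pfkfb4 overlapped in both populations and ranged from 0 CPM in αβ with AA replicate 1 to 66.6 CPM in γδ with AA replicate 3.

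Genes of neutrophils were also highest, as a sum, in 2 of the 3 γδ libraries with AA and in αβ without AA replicate 3. All 15 markers on a list of neutrophil genes had counts, 14 of the 15 were higher with AA in γδ cells, and their summed share of counts was 0.340%, 0.214% and 0.493% in γδ libraries with AA, against 0.208%, 0.206% and 0.0431% in γδ libraries without. In αβ cells the sum was 0.193%, 0.0762% and 0.171% with AA, against 0.0308%, 0.0265% and 0.409% without, and 6 of the 15 were higher with AA. Pfkfb3 and the neutrophil sum were both highest in replicate 3 among αβ libraries without AA and lowest in replicate 3 among γδ libraries without AA. Those are the libraries whose Trdc went against the label. The sum of macrophage markers was likewise highest and lowest there, at 2.49% and 0.414%. In γδ libraries with AA, Pfkfb3 was highest in replicate 1 and the neutrophil sum in replicate 3. In αβ without AA replicate 3 the neutrophil sum exceeded that of γδ with AA replicate 1, with Pfkfb3 at 135 against 511 CPM. The part of neutrophils or macrophages in the level of Pfkfb3 was not tested.

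**Figure D3:**
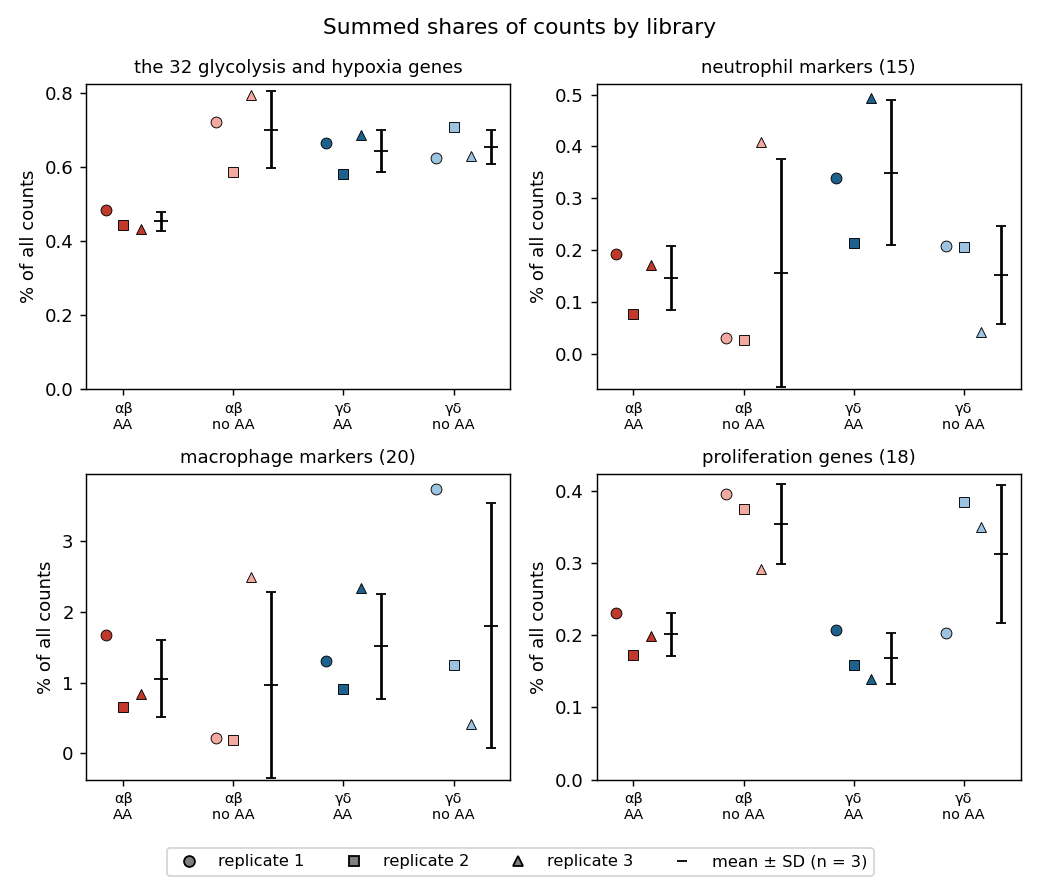
Percent of all counts in each library held by the 32 genes, by 15 neutrophil markers, by 20 macrophage markers and by 18 proliferation genes; each symbol is a library, its shape gives the replicate number, and the bars are mean ± SD of 3 libraries, which reach below 0 where the SD exceeds the mean. The 32 genes hold 0.432% to 0.483% in αβ libraries with AA, below the other 9 libraries, and the neutrophil markers hold 0.214% to 0.493% in γδ libraries with AA, above the γδ libraries without AA. Shares are not corrected for library composition.

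Hif1a (ENSMUSG00000021109.13) had 106, 172 and 165 CPM in αβ cells with AA, against 337, 283 and 265 CPM without. Its levels in γδ cells were 303, 178 and 208 CPM with AA, against 233, 233 and 159 CPM without. The αβ groups did not overlap and the γδ groups did. Its log2 fold change was -0.997 ± 0.298 in αβ cells (edgeR adjusted p = 0.395) and 0.14 ± 0.30 in γδ cells, with a difference of 1.14 ± 0.42 (edgeR adjusted p = 0.451). HIF-1 is controlled mostly at the level of its protein, which was not measured here.

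The oxygen sensors Egln1 and Egln3, which encode prolyl hydroxylases, were scarce. Egln3, itself a HIF-1 target, had 3.04, 3.48 and 3.55 CPM in γδ cells with AA, against 0.513, 1.59 and 1.25 CPM without, with no overlap. Egln1 overlapped in both populations. The 5 further hypoxia targets were Vegfa (a growth factor for vessels), Bnip3 (a protein of mitochondrial clearance), Ankrd37, P4ha1 (a collagen prolyl hydroxylase) and Mxi1 (a MYC antagonist). All of them overlapped between AA and no AA in both populations. With AA 3 of the 5 were lower in αβ cells and 2 of 5 in γδ cells, with medians of -0.37 and 0.13. Vegfa never exceeded 6.32 CPM and was at 0 CPM in αβ with AA replicate 3 and γδ without AA replicate 1, so that the depth of these libraries could show only large changes in it.

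**Figure D4:**
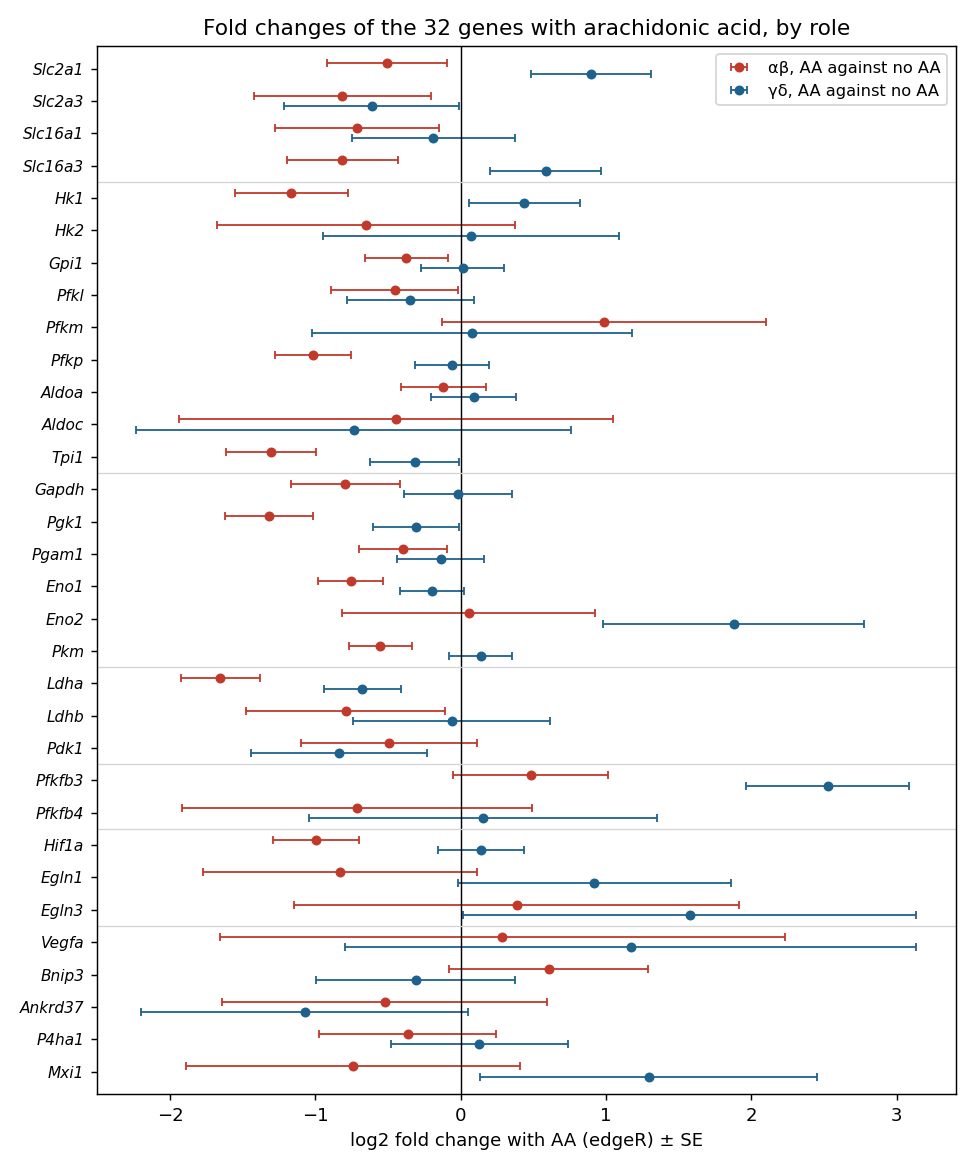
Log2 fold change with AA against no AA ± SE of each of the 32 genes in αβ cells (red) and γδ cells (blue), ordered by role from transporters at the top to hypoxia targets at the bottom, with grey lines between roles. Most red points lie left of 0, with Ldha at -1.66, and the blue points lie on both sides, with Pfkfb3 at 2.52.

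Set by role, all 4 transporters, 8 of 9 first-stage genes, 5 of 6 second-stage genes and all 3 genes of pyruvate fate were lower with AA in αβ cells, with median log2 fold changes of -0.77, -0.45, -0.66 and -0.79. The same roles had medians of 0.20, 0.01, -0.08 and -0.68 in γδ cells. The difference of AA effects, γδ minus αβ, was above 0 for 27 of the 32 genes, with a median of 0.75 against -0.08 over all genes tested. Of the 32 genes 10 had an unadjusted p under 0.05 for it (Hk1, Hif1a, Pfkfb3, Pfkp, Ldha, Slc16a3, Pgk1, Slc2a1, Tpi1 and Pkm), all with a positive difference, where 3.86% of all genes tested had one above 0 and 5.71% one below 0. None was called, as was none of all genes tested (0%), and the smallest edgeR adjusted p of the 32 was 0.442. In αβ cells 8 genes had an unadjusted p under 0.05, all lower, against 6.01% lower and 4.23% higher of all genes tested. In γδ cells Pfkfb3 and Slc2a1 (higher) and Ldha (lower) had one, against 3.38% higher and 3.85% lower of all genes tested. Without both libraries whose Trdc went against the label, 24 of the 32 genes were lower in αβ cells with a median of -0.61, where 43.9% of all genes tested were lower and their median was 0.27. In γδ cells 21 were then lower with a median of -0.09, where 47.2% of all genes tested were lower. The number with an unadjusted p under 0.05 for the difference was then 3, all above 0, where 1.79% of all genes tested had one above 0 and 3.89% one below 0.

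With AA, γδ cells stood above αβ cells for 28 of the 32 genes, with a median log2 difference of 0.63 against -0.19 over all genes tested. The groups did not overlap for 13 genes, all higher in γδ cells, where 9.1% of all genes tested were higher and 11.3% lower without overlap. Hk1 was 1.43 ± 0.39 higher on the log2 scale (edgeR adjusted p = 0.200), Pfkp 0.82 ± 0.26, Pkm 0.68 ± 0.22, Ldha 0.81 ± 0.27 and Slc16a3 1.08 ± 0.38. Pgk1, Tpi1, Eno1 and Hif1a were higher by 0.81 ± 0.30, 0.82 ± 0.31, 0.51 ± 0.22 and 0.64 ± 0.30, and Pfkfb3 by 1.67 ± 0.55. For 11 genes the unadjusted p was under 0.05, where 6.19% of all genes tested had one and were higher and 12.3% had one and were lower. None was called, where 0.0226% of all genes tested were, and the edgeR adjusted p of these 10 genes and Eno2 lay between 0.200 and 0.270. Genes of other cells differed too. All 10 B cell markers were lower in γδ cells, with a summed share of 0.201% to 0.455% of counts in γδ libraries with AA, against 0.873% to 2.29% in αβ libraries with AA. Of 9 tested mast cell and basophil markers 8 were lower, with 0.0510% to 0.101% in γδ libraries, against 0.0785% to 0.765% in αβ libraries. All 15 neutrophil markers were higher, with 0.214% to 0.493% in γδ libraries, against 0.0762% to 0.193% in αβ libraries. Every marker on these lists had a count in both groups, and their part in the levels of the 32 genes was not tested. This comparison shares the libraries with AA with both comparisons above.

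Without AA the populations were closer. Of the 32 genes 22 were lower in γδ cells, with a median of -0.17 against -0.07 over all genes tested, and none had an unadjusted p under 0.05 (0.855% of all genes tested had one and were higher, 2.44% lower) or was called (0% of all genes tested). Eno2 was higher and Hif1a lower in γδ cells without overlap, where 3.14% of all genes tested were higher and 5.19% lower without overlap. The fold changes were -0.50 ± 0.30 for Hif1a, -0.57 ± 0.41 for Slc2a1 and 1.04 ± 0.88 for Eno2, each with an edgeR adjusted p of 1. Hif1a and the other genes of this comparison rest in part on the 2 libraries whose Trdc went against the label, and without those 17 of the 32 genes were lower in γδ cells, with a median of -0.04, where 57.6% of all genes tested were lower and their median was -0.21.

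A further 4 lists held genes around these, and none of their genes was called in either population. Of 31 tested genes of other sugar enzymes 16 were lower with AA in αβ cells and 12 in γδ cells. In αβ cells 5 were lower and 2 higher without overlap (10.9% and 8.27% of all genes tested). In γδ cells 2 were lower and 1 higher without overlap (7.08% and 4.86%). Slc2a6, a glucose transporter family member of lysosomes, had 51.5, 109.5 and 44.9 CPM in αβ cells with AA, against 213, 196 and 145 CPM without, and Eno3, the muscle enolase, 22.3, 4.03 and 15.1 CPM with AA, against 38.4, 38.3 and 63.5 CPM without. G6pdx, the entry enzyme of the pentose phosphate path, had 364, 269.9 and 497 CPM in γδ cells with AA, against 208, 234 and 112 CPM without. Galk1, galactokinase, had 16.6, 17.5 and 16.8 CPM with AA, against 36.7, 34.9 and 42.5 CPM without. None of these 4 pairs of groups overlapped. Genes named here and from the lists below were the 2 with the smallest p per population. Their lack of overlap follows largely from that choice and is no further support.

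Another list held 15 genes around the entry of pyruvate into the mitochondrion. Among them were Pdk2, Pdk3 and Pdk4, which like Pdk1 encode kinases that inhibit pyruvate dehydrogenase. Of the 15 genes 10 were lower with AA in αβ cells and 10 in γδ cells. In αβ cells 7 were lower without overlap, Pdk3 among them, and 0 higher (10.9% and 8.27% of all genes tested). In γδ cells 1 was lower and 1 higher without overlap (7.08% and 4.86%). These counts mix genes of opposite effect and give no direction of pyruvate entry. Pdha1, a subunit of pyruvate dehydrogenase, had 53.3, 58.9 and 49.2 CPM in αβ cells with AA, against 101, 99.7 and 79.5 CPM without. Me2, the mitochondrial malic enzyme, had 31.8, 51.5 and 38.5 CPM with AA, against 60.8, 77.2 and 90.7 CPM without. Mpc2, a subunit of the mitochondrial pyruvate carrier, had 49.1, 37.5 and 55.8 CPM in γδ cells with AA, against 117, 73.5 and 85.7 CPM without. Pdha1 and Me2 in αβ cells and Mpc2 in γδ cells were lower without overlap. Mpc2 was lower without overlap in αβ cells too, at 45.9, 37.1 and 39.6 CPM with AA, against 49.7, 61.0 and 80.6 CPM without. Pcx, pyruvate carboxylase, overlapped in γδ cells.

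Of 36 tested genes of the wider hypoxia response 23 were lower with AA in αβ cells and 14 in γδ cells. In αβ cells 4 were lower and 1 higher without overlap (10.9% and 8.27% of all genes tested). In γδ cells 3 were lower and 5 higher without overlap (7.08% and 4.86%). Angptl4, a lipase inhibitor that fatty acids also induce, had 0.0910, 4.19 and 0.182 CPM in αβ cells with AA, against 18.2, 21.8 and 22.1 CPM without, and Tfrc, the transferrin receptor, 133, 77.1 and 24.2 CPM with AA, against 331, 181 and 221 CPM without. Bhlhe40, a repressor of transcription, had 551, 212 and 304 CPM in γδ cells with AA, against 104, 154 and 135 CPM without. Car12, a carbonic anhydrase, had 1.10, 0.373 and 0.0554 CPM with AA, against 7.92, 11.6 and 19.3 CPM without. All 4 lacked overlap.

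Among 29 regulators upstream of glycolysis 16 were lower with AA in αβ cells and 12 in γδ cells. In αβ cells 4 were lower and 1 higher without overlap (10.9% and 8.27% of all genes tested). In γδ cells 1 was lower and 5 higher without overlap (7.08% and 4.86%). Myc had 138, 92.6 and 149 CPM in αβ cells with AA, against 307, 248 and 405 CPM without, with a log2 fold change of -1.34 ± 0.33 (edgeR adjusted p = 0.269). It was lower without overlap in γδ cells too, at 162.7, 157.6 and 90.3 CPM with AA, against 209.9, 383 and 305 CPM without. Pik3cd, the leukocyte PI3 kinase subunit, had 151, 308 and 304 CPM in αβ cells with AA, against 469, 386 and 409.6 CPM without. Mxd1, which competes with MYC for its partner MAX, had 215, 77.4 and 202 CPM in γδ cells with AA, against 39.2, 53.8 and 20.3 CPM without (log2 fold change 2.13 ± 0.53, edgeR adjusted p = 0.510). Rptor, a subunit of the mTOR complex, had 75.4, 45.4 and 201 CPM with AA, against 14.2, 29.2 and 23.5 CPM without. These 4 lacked overlap too.

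Sums of some other gene lists also differed between αβ libraries with and without AA, while that of macrophage markers overlapped. The sum of 18 proliferation genes was 0.231%, 0.172% and 0.199% of counts in αβ libraries with AA, against 0.396%, 0.374% and 0.291% in αβ libraries without, and 16 of the 18 were lower with AA. In γδ cells it was 0.207%, 0.158% and 0.139% with AA, against 0.203%, 0.384% and 0.350% without, and all 18 were lower. The sum of CD3 chain genes and Ptprc, which encodes CD45, was 0.0854% to 0.0946% in αβ libraries with AA, against 0.137% to 0.170% in αβ libraries without, and RNA encoded in mitochondria was 2.54% to 5.43% with AA, against 1.09% to 2.48% without. Macrophage markers, 20 of 20 with counts in αβ cells with AA, ranged from 0.656% to 1.68% with AA, against 0.194% to 2.49% without, where Clec4f was at 0. In γδ cells they ranged from 0.905% to 2.35% with AA, where C1qc, Timd4, Vsig4 and Cd5l were at 0, against 0.414% to 3.74% without. The part of any of these in the levels of the 32 genes was not tested.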

How the data were processed

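Gene expression was measured by RNA sequencing in 12 libraries, 4 groups of 3. The table deposited by the authors holds raw read counts per gene. Per the labels' protocols, Trizol was used for the RNA and a TruSeq kit for the libraries. Per the submitters' processing notes, Bowtie 0.12.2 and build mm8 were used. Which program and annotation did the counting, and whether strand was used, is not given in the sources used here. GENCODE M21 holds 98.1% of the identifiers in the same version. M21 annotates build GRCm38, not mm8, and which build the counts rest on is not settled here.

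Genes were kept by filterByExpr (minimum count 10), which left 22107. All 12 libraries entered one model in edgeR 4.0.16 (R 4.3.3) with group means and TMM scaling, which left 8 residual degrees of freedom. The quasi-likelihood test was used with Benjamini-Hochberg adjustment over all genes tested and calls at 0.05. The common biological coefficient of variation was 1.21. Errors of log2 fold changes are SE. Levels are CPM after TMM scaling with SD. TPM use GENCODE M21 exon lengths. Count ratios used a pseudocount of 0.5. Near-identical copies were sought with BLAST. Promoter windows came from RefSeq, GRCm38.p6. The fit was first tested on simulated data with less spread between libraries than these data have. That test therefore does not show how well changes are recovered at the spread seen here.

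Replicates differed beyond sampling noise (chi-square per degree of freedom of 52.4 or more), so none was taken as a copy. The members and gene lists were chosen with earlier results of these data known. Fold changes were given for members called, failing those for members with an unadjusted p under 0.05, failing those for the 3 with the smallest p. AA fold changes of members named for another comparison were added after their values were seen. From each further list the called genes or the 2 with the smallest p were named per AA comparison. Other members are given by their values. A second identifier named Aldoa held 49 counts in all and was not used. Alternatives were other scalings, filters, DESeq2 1.42.0, voom of limma 3.58.1, the replicate number as a block, and libraries, repeat genes or mitochondrial genes left out.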

Additional observations from a re-analysis of the deposited data

Results flagged for a closer look

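Slc16a3, the lactate exporter MCT4, was singled out because all 3 libraries with AA lay on opposite sides of those without AA in the 2 populations. Its log2 fold change with AA was 0.59 in γδ cells and -0.82 in αβ cells. The difference between populations was 1.40 ± 0.54 (SE, unadjusted p = 0.0212 and adjusted p = 0.468 in edgeR's quasi-likelihood test), which does not pass the threshold. Under the alternatives the difference ranged from 1.06 to 1.59 with adjusted p of 0.355 to 0.916, and the lowest value came without both libraries whose Trdc went against the label.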

How the results depend on the processing

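No member was called in any comparison as reported. Without the filter on low counts, 2 members were called in αβ cells (Ldha and Pgk1, where 0.597% of all genes were called), 1 in γδ cells (Pfkfb3, 0.33%), 1 for the difference (Pfkfb3, 0.491%), 3 for the average (Ldha, Pgk1 and Pfkfb3, 0.721%) and 2 between populations with AA (Ldha and Pfkfb3, 1.52%). DESeq2 called 1 in αβ cells (Ldha, where 1.95% of all genes with an adjusted p were called), 1 in γδ cells (Pfkfb3, 1.37%), 2 for the average (Ldha and Pfkfb3, 2.79%) and 1 between populations with AA (Eno2, 9.53%). The voom fit called 1 in αβ cells (Ldha, where 0.276% of all genes were called), 2 for the average (Ldha and Pgk1, 0.29%) and 1 between populations with AA (Ldha, 3.22%). The cause of these changes was not tested. With single libraries left out, the number called ranged from 0 to 1 in αβ cells, where Ldha passed without αβ with AA replicate 3 (adjusted p = 0.0328, 0.0234% of all genes called), and from 0 to 1 for the average, where Ldha passed without αβ with AA replicate 2 (adjusted p = 0.0411, 0.217% of all genes called). Of the fold changes printed in the text, those near 0 of Pfkp and Hif1a with AA in γδ cells reversed and no others did under the alternatives run. Pfkp was 0.0159 with DESeq2's size factors, 0.0157 by DESeq2, and -0.220 to 0.0259 with single libraries left out. Hif1a was -0.0669 without both libraries whose Trdc went against the label, and -0.0710 to 0.244 with single libraries left out. With the replicate number as a block, 0 members were called in every comparison. Same-numbered libraries with and without AA correlated in their deviations at 0.013 to 0.058 in αβ cells and -0.037 to 0.143 in γδ cells. Differently numbered ones correlated at -0.041 to 0.017 in αβ cells and -0.165 to 0.080 in γδ cells. With 3 libraries per group these values cannot decide whether the numbers pair libraries.

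The median of the 32 genes stayed below 0 in αβ cells under all 23 alternatives (-0.75 to -0.22), and lay 0.36 to 1.14 below the median of all genes. DESeq2's size factors moved the αβ median of all genes to 0.50, and the members' median was then -0.22. In γδ cells the median of the members was below 0 under 7 of 23 alternatives. The αβ libraries with AA had the 3 smallest totals (6036487 to 17021782 counts) and the lowest correlations within a group, which limits the precision of scarce genes such as Vegfa and Pfkfb4.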
